A study of Mus musculus with 12 samples.

Results

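Fatty acid uptake and oxidation in mouse muscle was followed through 36 genes, chosen by name as carriers, enzymes and regulators of fat use. Each was found in the count table by its Ensembl identifier in the GRCm38 annotation, and the 36 genes are 36 of the 55573 identifiers in the table. The tissue was the extensor digitorum longus of C57BL/6 mice, a hindlimb muscle made mostly of fast fibers, and RNA was sequenced in 12 libraries, 3 from each of 4 groups. These were isolated single myofibers, pooled myofibers in lots of 5, pooled myofibers in lots of 20, and muscle taken whole. The labels give strain and tissue, with no genotype, treatment or age that differs between groups. The labels' protocols say that single fibers went straight into lysis buffer and that the RNA of whole muscle was taken with Trizol; nothing is said separately of the pools. Every library used SMART-Seq HT, a method for full-length cDNA from little RNA. Isolating a fiber and the way its RNA was obtained therefore cannot be told apart in the comparison with whole muscle. Whether the libraries of a group came from separate animals is not in the labels, so a p-value here measures only the spread among the libraries, which may be technical.

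Muscle fibers take up fatty acids released from lipoproteins by lipoprotein lipase on the capillary wall, carry them in the cytosol on a binding protein, and activate them to acyl-CoA. The carnitine shuttle moves the acyl groups into mitochondria, where chain-length-specific dehydrogenases, a hydratase, a further dehydrogenase and a thiolase shorten them in turns, and electron transfer flavoprotein passes the electrons to the respiratory chain. Malonyl-CoA holds the shuttle back, pyruvate dehydrogenase kinase 4 turns the fiber away from glucose, and the PPAR receptors with their coactivator PGC-1alpha drive transcription of many of these genes. Fast fibers such as those of this muscle depend less on the pathway than slow, oxidative fibers do.

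Totals ran from 4702823 to 27787120 counted reads per library. Levels are given as CPM, the reads of a gene set to a common library total with TMM factors (trimmed mean of M-values) over the 12 libraries, and levels of different genes are compared only as RPKM, which is CPM per kilobase of exon. A set of 3 fiber libraries stood apart for these genes. In 20-fiber pool 2 the median difference of the 36 genes from their whole muscle means was -3.31 (log2 of CPM plus 0.5), its TMM factor was 2.82 against 0.524 to 1.61 in the other 11 libraries, and 97.3% of 1504 olfactory, vomeronasal and taste receptor genes had a read, against at most 4.85% in whole muscle. In single fiber 2 and 5-fiber pool 3 the same median was -0.02 and -0.11, while in the 6 other fiber libraries it lay between -1.36 and -0.63. These standings rest on the scaling: single fiber 2 and 5-fiber pool 3 each have 14 of the 36 genes above the whole muscle range in CPM, 13 each with TMM factors from genes expressed in whole muscle, and 2 and 3 in CPM set to the library total alone, with no factors, where Etfb and Acot13 were above in both and Ppargc1a in 5-fiber pool 3. Elsewhere, a library said to lie above or below whole muscle is compared in CPM with TMM factors over the 12 libraries. The part of the receptor reads and factors in the levels was not tested. Calls that came or went without these libraries are given with the genes. In bulk samples such as these, fewer cells of a type and less RNA per cell cannot be told apart.

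**Figure D1:**
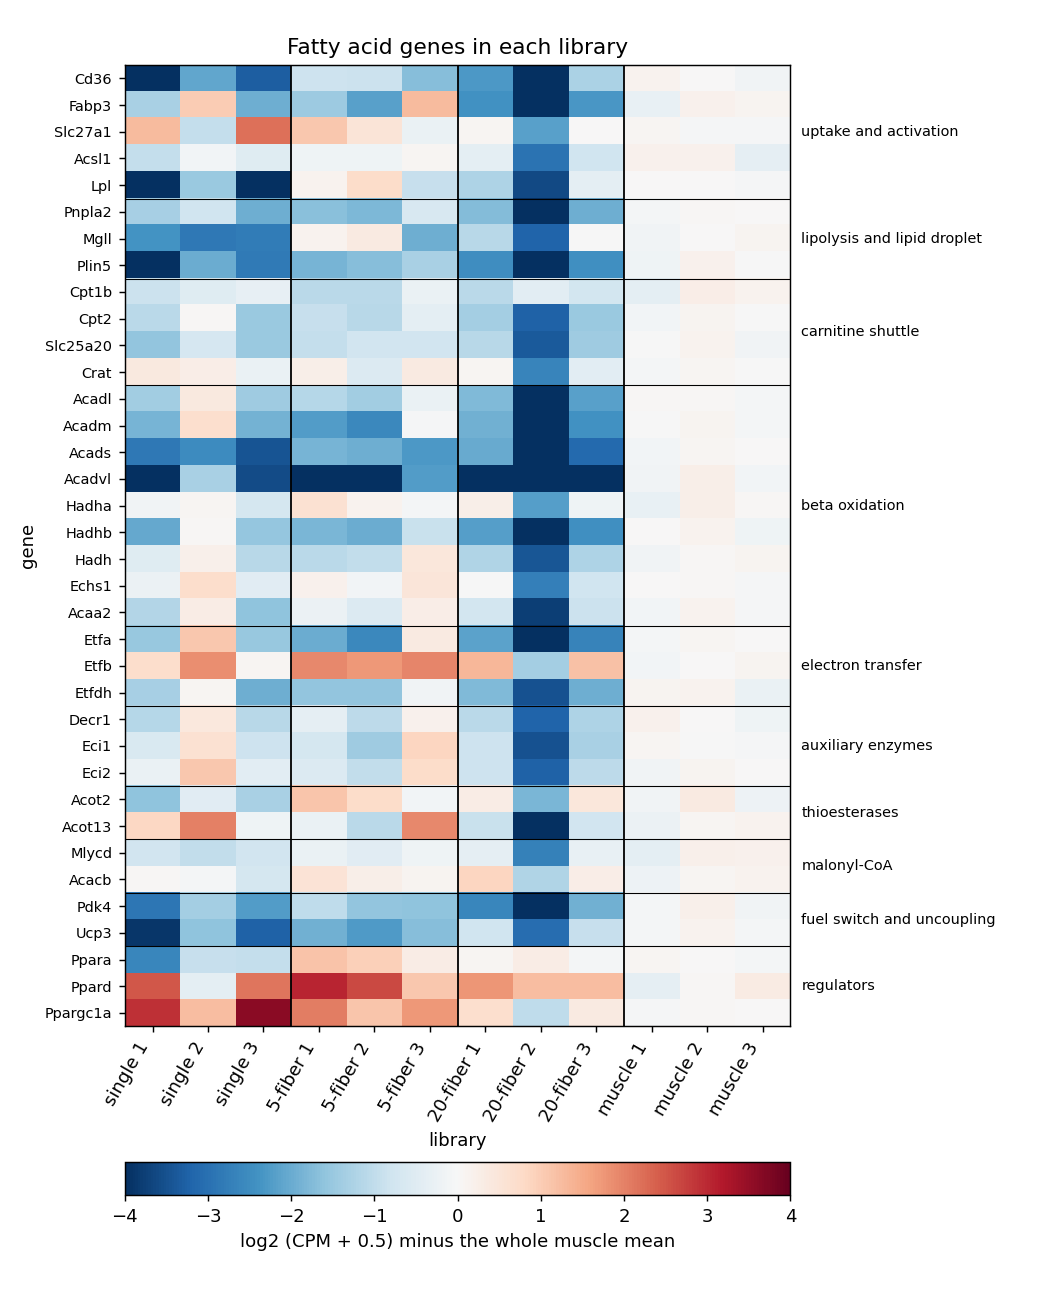
Level of each of the 36 genes in each of the 12 libraries, as log2 of CPM plus 0.5 minus the mean of the 3 whole muscle libraries, with genes in rows by role and libraries in columns, blue below and red above whole muscle. In 20-fiber pool 2 the column is blue for 34 of 36 genes, while single fiber 2 and 5-fiber pool 3 each have 14 genes above the whole muscle range.

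In whole muscle the highest level per length was that of Fabp3, the cytosolic fatty acid binding protein of muscle, at 590 ± 100.2 RPKM (SD, n = 3). The thioesterase Acot13 followed at 199 ± 25.8 RPKM, the thiolase Acaa2 at 161 ± 14.8 RPKM, and Etfa and the long-chain dehydrogenase Acadl at 118 ± 6.69 and 115 ± 5.93 RPKM. Etfa and Acadl did not differ beyond their spread, nor did Acadl and Pdk4 at 102 ± 13.4 RPKM. The lowest levels were those of the receptors Ppara (0.661 ± 0.0452 RPKM) and Ppard (0.287 ± 0.0808 RPKM) and of Cpt1b (0.174 ± 0.0734 RPKM). Fabp3 and Acot13 also led in isolated fibers, at 392 ± 513 and 286 ± 293 RPKM (SD, n = 9), with a spread larger than the mean. Acadvl stood at rank 13 of 36 in whole muscle and at rank 30 in isolated fibers, and Etfb at rank 12 and rank 3. Other genes share 81.4% of the exon bases of Cpt1b and 58.25% of those of Etfb on the same strand, and 42.9% of those of Acadvl on the opposite strand. How such reads were counted is not given, so these levels per length are uncertain.

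Isolated fibers as a whole (the mean of the 3 fiber groups) were compared with whole muscle in one fit over 12 libraries, with edgeR's quasi-likelihood test and Benjamini-Hochberg adjustment over all genes tested. Of the 36 genes, 9 were lower: the fatty acid transporter Cd36, the dehydrogenases Acadvl and Acads, the trifunctional protein subunit Hadhb, the carrier Slc25a20, the lipase Pnpla2, the lipid droplet protein Plin5, Pdk4 and the uncoupling protein Ucp3. A single gene, Ppard, was higher. The 9 lower genes were 25.0% of the 36 tested, where 7.78% of all 22110 genes tested were called lower, and the 1 higher gene compares with 7.46% called higher. The median log2 fold change of the 36 was -0.92, with 30 below 0, and that of all genes tested was 0.40. With relative log expression factors, upper-quartile factors, or TMM factors from genes expressed in whole muscle, the medians of the 36 were -0.87, -0.69 and -0.67 and those of all genes 0.56, 0.69 and 0.82. All these scalings called fewer genes of the genome lower relative to higher: 1317 lower and 1455 higher with relative log expression, 1136 and 2119 with upper-quartile and 801 and 1707 with the factors from muscle genes, against 1720 and 1650. The count of members called lower was 17 without 5-fiber pool 3, 15 without single fiber 2, and 19 without both, where 11.4%, 9.01% and 14.8% of all genes tested were called lower. It was 5, 4 and 6 without whole muscle 1, 2 and 3 in turn, where the share of all genes was 3.71%, 3.42% and 3.35%.

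**Figure D2:**
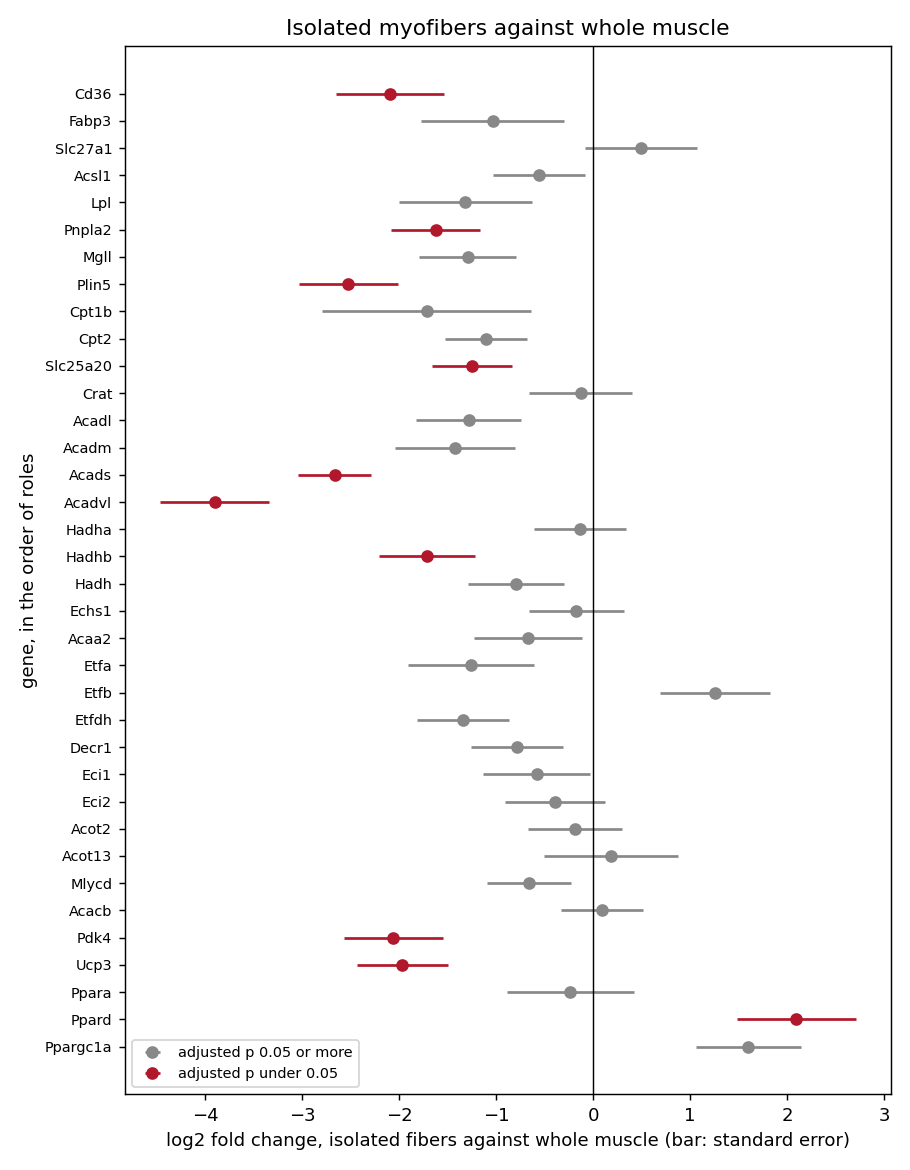
Log2 fold change of each of the 36 genes in isolated fibers (9 libraries) against whole muscle (3 libraries) from edgeR, with genes on the vertical axis by role, bars of 1 standard error, and red for adjusted p under 0.05. Acadvl lies farthest to the left at -3.90 and Ppard farthest to the right at 2.09.

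The windows around the start sites of members that were lower together are shown here for reading beside their values. RefSeq start-site windows (GRCm38.p6, 250 bases before to 50 after the start, written 5′ to 3′ on the gene's strand) were found for 30 of the 36 genes, 35 windows in all. The capitals mark AGGTCA, the core hexamer that PPAR and related nuclear receptors bind as repeats, searched on both strands (TGACCT on the other strand). The windows of 5 of the 9 lower genes (Acads, Hadhb, Slc25a20, Pnpla2 and Pdk4) do not hold it. Printed is 1 window for each of the 4 genes that do: Acadvl (chr11:70015379-70015678, minus strand, 1 match beginning 87 bases before the start), Plin5 (chr17:56117499-56117798, minus strand, 170 before), Ucp3 (chr7:100472741-100473040, plus strand, 2 matches, 149 and 44 before) and Cd36 (chr5:17835847-17836146, minus strand, 228 before). A second Plin5 window (chr17:56117249-56117548, minus strand) also holds it, 13 bases after its start, and is not printed.
Acadvl: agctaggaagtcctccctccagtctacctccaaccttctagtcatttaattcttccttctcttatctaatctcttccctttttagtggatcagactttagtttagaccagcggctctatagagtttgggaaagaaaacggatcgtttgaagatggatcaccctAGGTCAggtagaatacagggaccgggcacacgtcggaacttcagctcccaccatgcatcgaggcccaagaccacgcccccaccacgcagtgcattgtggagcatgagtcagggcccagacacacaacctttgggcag
Plin5: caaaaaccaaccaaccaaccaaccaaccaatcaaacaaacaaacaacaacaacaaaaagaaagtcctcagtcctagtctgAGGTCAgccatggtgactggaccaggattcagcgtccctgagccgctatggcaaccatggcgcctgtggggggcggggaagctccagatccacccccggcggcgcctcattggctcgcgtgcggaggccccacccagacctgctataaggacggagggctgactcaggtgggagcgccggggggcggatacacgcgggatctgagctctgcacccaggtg
Ucp3: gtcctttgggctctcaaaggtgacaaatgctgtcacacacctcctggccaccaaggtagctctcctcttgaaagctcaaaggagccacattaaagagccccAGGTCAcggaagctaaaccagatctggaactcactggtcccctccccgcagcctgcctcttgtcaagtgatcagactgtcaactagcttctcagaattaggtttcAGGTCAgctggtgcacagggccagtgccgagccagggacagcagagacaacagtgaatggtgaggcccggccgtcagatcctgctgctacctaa
Cd36: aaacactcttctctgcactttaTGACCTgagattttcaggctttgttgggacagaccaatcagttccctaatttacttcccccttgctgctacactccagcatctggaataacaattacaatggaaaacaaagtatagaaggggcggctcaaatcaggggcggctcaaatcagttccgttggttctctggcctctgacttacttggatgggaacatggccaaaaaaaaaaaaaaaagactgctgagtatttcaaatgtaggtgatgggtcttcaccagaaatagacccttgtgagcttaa
The hexamer was present in the windows of 7 of the 30 genes (23.3%; Acacb, Acadm, Acadvl, Cd36, Echs1, Plin5 and Ucp3) and of 18.1% of 27025 genes with a window. Of the 35 windows, none held the direct repeat AGGTCANAGGTCA, the estrogen-related receptor element TCAAGGTCA or the cAMP response element TGACGTCA on either strand. Those were present in 0.0396%, 0.423% and 1.79% of all 32851 windows. The first 2 of these motifs contain the hexamer, so their matches overlap it. A match is a description of these letters and not a site.

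Among uptake genes, Cd36 (ENSMUSG00000002944, chromosome 5, 17781690 to 17888801, minus strand), which brings fatty acids across the plasma membrane of muscle, endothelial and fat cells, was at 339, 312 and 280 CPM in whole muscle. It was at 13.5, 72.5 and 31.1 CPM in single fibers, 174, 170 and 95.2 CPM in pools of 5, and 62.4, 9.80 and 127 CPM in pools of 20. Every fiber library lay below every whole muscle library, which held for 8 of the 36 genes in all and for 7.72% of all genes tested. The log2 fold change was -2.10 ± 0.56 (SE; 4.28-fold lower, adjusted p = 0.0190). Leaving out whole muscle 1 or 2 gave an adjusted p of 0.0569 or 0.0582.

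Fabp3 showed the widest range of the uptake genes. It was at 391, 542 and 523 CPM in whole muscle, 193, 970 and 123 CPM in single fibers, 174, 107 and 1145 CPM in pools of 5, and 89.7, 10.3 and 94.4 CPM in pools of 20. Single fiber 2 and 5-fiber pool 3 were above every whole muscle library, and the 7 other fiber libraries were below. The log2 fold change was -1.04 ± 0.74 (adjusted p = 0.355). It was -1.70 without 5-fiber pool 3 (adjusted p = 0.0373) and -2.15 without both libraries (0.00212). The log2 fold change was 0.33 without the 5 libraries in which over 50% of receptor genes had a read. Those were 5-fiber pools 1 and 2 and all pools of 20. That fit sets single fibers and 5-fiber pool 3, the library with the most Fabp3, at equal weight against whole muscle. It is a different comparison from the one over all fibers. Of the Fabp3 transcripts, 37.1% of the sampled 50-base windows also occur in transcripts of another gene, chiefly the pseudogene Fabp3-ps1, which had 1 to 186 reads per library. Slc27a1, a transporter that activates fatty acids as it takes them up, went the other way between the same libraries: it was lowest among single fibers in single fiber 2 (19.9 CPM, against 93.2 and 180.5) and lowest among pools of 5 in pool 3 (31.8 CPM, against 82.5 and 55.7). Acsl1, the main acyl-CoA synthetase of muscle, was at 124 to 179 CPM in whole muscle and 20.1 to 165 CPM in fibers, and its log2 fold change was -0.56 ± 0.48 (adjusted p = 0.461).

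Lipoprotein lipase, Lpl, frees fatty acids from circulating lipoproteins, is made by muscle and fat cells, and works on the capillary wall. It was at 364, 366 and 353 CPM in whole muscle, 8.55, 128 and 13.0 CPM in single fibers, 395, 599 and 192 CPM in pools of 5, and 155, 29.02 and 277 CPM in pools of 20. Pools of 5 spanned the whole muscle level, whereas all single fibers and all pools of 20 were below it. Over all isolated fibers the log2 fold change was -1.32 ± 0.68 (adjusted p = 0.187), and it passed at -2.13 without single fiber 2 (0.0156) and at -2.00 without single fiber 2 and 5-fiber pool 3 (0.00504). Single fibers alone were 7.83-fold lower (log2 fold change -2.97 ± 0.93, adjusted p = 0.0428 in their own fit). That call was lost without single fiber 1 or 3 (adjusted p 0.0557 and 0.0938) and without whole muscle 1, 2 or 3 (0.112, 0.109 and 0.112), and DESeq2 gave no adjusted p for Lpl there.

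Of the 3 lipolysis and lipid droplet genes, 2 were lower in isolated fibers. Plin5 (ENSMUSG00000011305, chromosome 17, 56111601 to 56117596, minus strand) coats lipid droplets at their contact with mitochondria in oxidative tissue. It was at 33.6, 43.4 and 37.9 CPM in whole muscle, 0.332, 9.23 and 4.96 CPM in single fibers, 10.2, 11.3 and 15.2 CPM in pools of 5, and 6.34, 1.89 and 6.49 CPM in pools of 20. No fiber library overlapped whole muscle, and the lowest value, in single fiber 1, rested on 4 reads. Plin5 was 5.76-fold lower (log2 fold change -2.53 ± 0.51, adjusted p = 0.00326), and the call held without each library in turn. Without the 5 fiber libraries in which over 50% of receptor genes had a read, the log2 fold change was -2.33. That fit holds only single fibers and 5-fiber pool 3 against whole muscle.

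Pnpla2 (ENSMUSG00000025509, chromosome 7, 141455198 to 141460743, plus strand), the adipose triglyceride lipase that makes the first cut in stored triglyceride, was at 146, 159 and 154 CPM in whole muscle. In fibers it was at 60.2, 87.3 and 39.4 CPM (single), 48.1, 43.9 and 97.3 CPM (pools of 5), and 45.6, 8.44 and 39.2 CPM (pools of 20). All 9 fiber libraries were below whole muscle, at a log2 fold change of -1.63 ± 0.46 (3.08-fold lower, adjusted p = 0.0252). Without whole muscle 1, 2 and 3 in turn the adjusted p was 0.0844, 0.112 and 0.104. Mgll, which cleaves the last fatty acid from the glycerol, was at 43.6, 48.6 and 52.4 CPM in whole muscle, 8.80, 6.26 and 6.47 CPM in single fibers, 53.4, 61.8 and 12.1 CPM in pools of 5, and 21.9, 4.83 and 48.0 CPM in pools of 20. Single fibers were 6.92-fold below whole muscle (log2 fold change -2.79 ± 0.27, adjusted p = 0.000745), a call that held without each of the 6 libraries. In 5-fiber pools 1 and 2 Mgll was above the whole muscle range, and over all isolated fibers Mgll did not pass the test (log2 fold change -1.29 ± 0.50, adjusted p = 0.0773). It passed without 5-fiber pool 2 or 3 or 20-fiber pool 3 (adjusted p = 0.0479, 0.0473 and 0.0369) and without single fiber 2 and 5-fiber pool 3 (0.0352). With the 5 libraries with many receptor reads left out, single fibers and 5-fiber pool 3 alone were at a log2 fold change of -2.55.

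**Figure D3:**
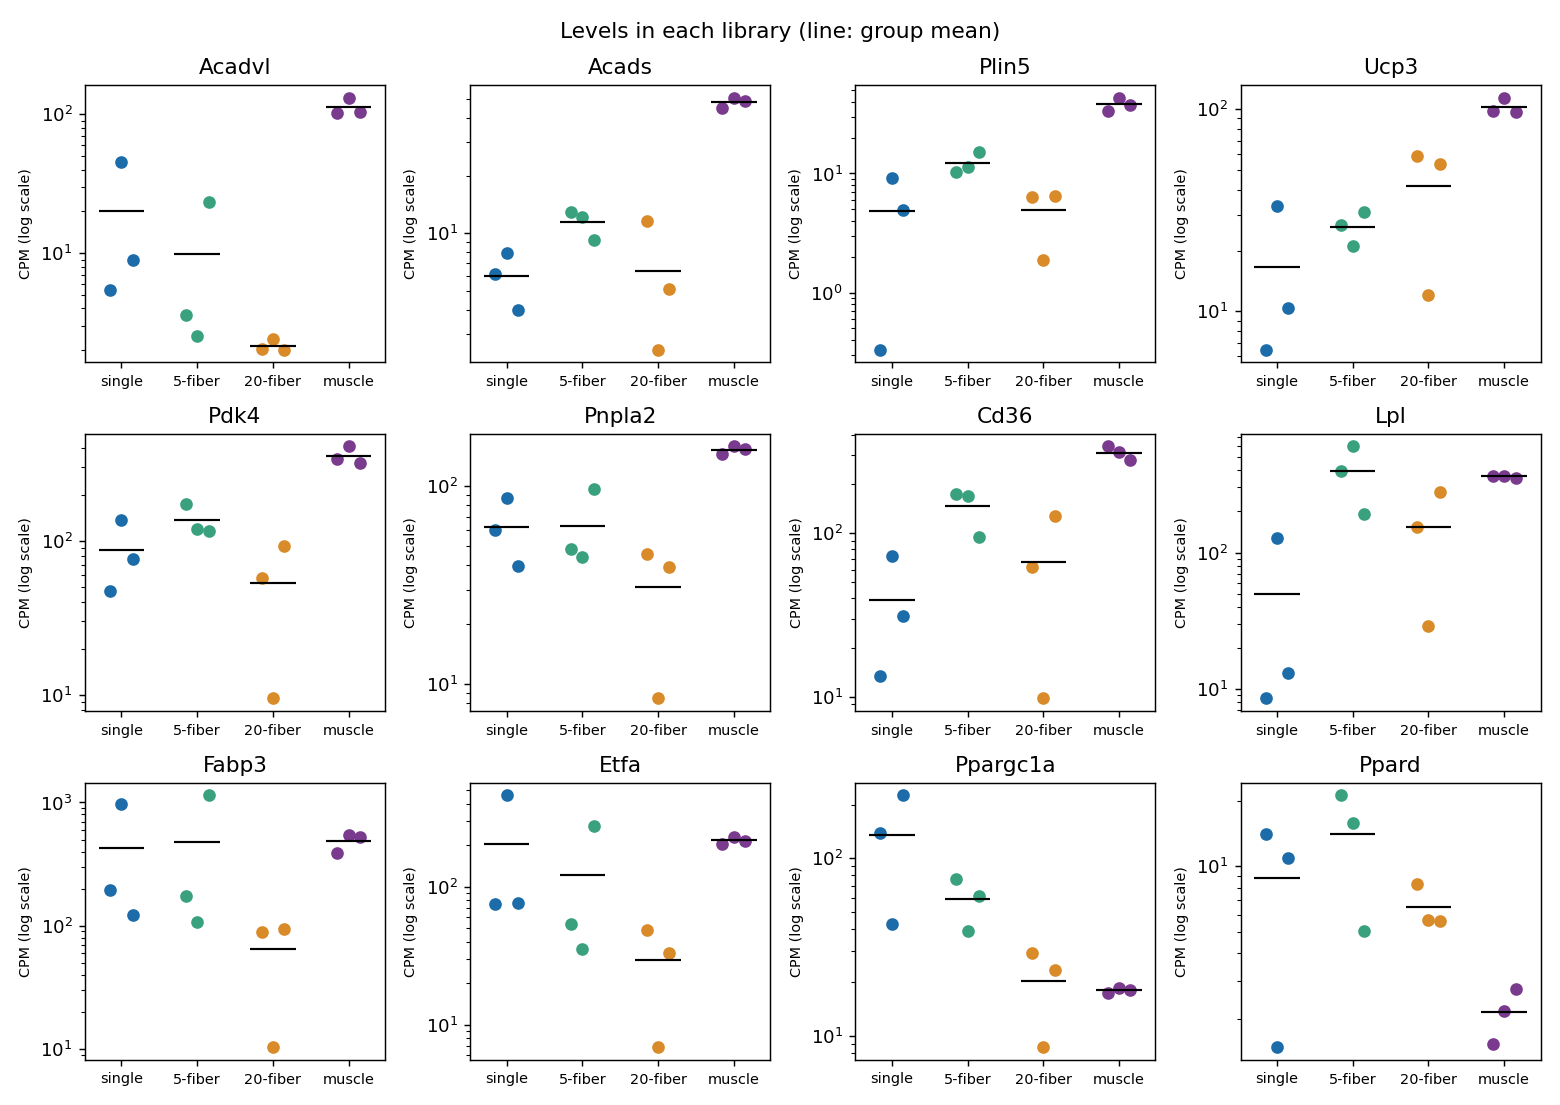
CPM of 12 genes in each library on log axes, 1 panel per gene, with 3 points per group and a line at the group mean. Acadvl, Acads, Plin5, Ucp3, Pdk4, Pnpla2 and Cd36 show no fiber library at the whole muscle level, while Fabp3 and Etfa have single fiber 2 and 5-fiber pool 3 above it.

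In the carnitine shuttle, Slc25a20 (ENSMUSG00000032602, chromosome 9, 108662088 to 108684641, plus strand), the carrier that exchanges acylcarnitine for carnitine across the inner mitochondrial membrane, was at 71.9, 80.2 and 65.8 CPM in whole muscle. It was at 24.0, 45.1 and 25.3 CPM in single fibers, 37.4, 42.8 and 42.2 CPM in pools of 5, and 33.0, 6.56 and 26.7 CPM in pools of 20. The groups did not overlap, yet the fold was small (2.38-fold, log2 fold change -1.25 ± 0.41) and the adjusted p of 0.0473 lay close to the threshold. The call was lost in 8 of 12 fits that left out 1 library, those without whole muscle 1, 2 or 3, single fiber 1 or 3, 5-fiber pool 1 or 2, or 20-fiber pool 3 (adjusted p up to 0.195), with upper-quartile factors (0.0577) and without a filter on low counts (0.0785). Cpt2, which returns the acyl group to CoA inside the mitochondrion, had a log2 fold change of -1.11 ± 0.43 (adjusted p = 0.0760), and was called lower without single fiber 2 (0.0341), without 5-fiber pool 3 (0.0363) and without both (0.00746). Cpt2 was also called lower with relative log expression factors (adjusted p = 0.0496) and with DESeq2 (0.02).

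Crat, carnitine acetyltransferase, had the highest level per length of the shuttle genes. It was at 268, 299 and 283 CPM in whole muscle, 373, 340 and 234 CPM in single fibers, 335, 193 and 359 CPM in pools of 5, and 301, 45.1 and 210.3 CPM in pools of 20. Fiber libraries lay on both sides of whole muscle, and the log2 fold change was -0.13 ± 0.53 (adjusted p = 0.973). Cpt1b, the muscle form of the enzyme that loads acyl groups on carnitine, was nearly unread in all groups: 4, 22 and 20 reads in whole muscle, and 0 to 6 reads in each fiber library. On these few reads it was called lower without 5-fiber pool 3 (adjusted p = 0.0395) and without that pool and single fiber 2 (0.0388). In the 3 fiber groups its read density was within that of the receptor genes (at or under their 99th percentile), and in whole muscle it was 13.6 reads per kilobase against 2.83. The annotated gene Gm44502 covers 81.4% of the Cpt1b exon bases on the same strand and had 0 reads in all 12 libraries; how reads on overlapping genes were counted is not given in the sources used here, and its part in the low count was not tested.

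Acyl-CoA dehydrogenases take the first step of each round of beta oxidation, and the 4 of them differ by chain length. Acadvl (very long chains; ENSMUSG00000018574, chromosome 11, 70010183 to 70015411, minus strand) was at 102, 132 and 105 CPM in whole muscle, 5.39, 45.7 and 8.86 CPM in single fibers, 3.56, 2.55 and 23.4 CPM in pools of 5, and 2.04, 2.41 and 2.02 CPM in pools of 20. All fibers were below whole muscle, with single fiber 2 and 5-fiber pool 3 the highest of them and the 3 pools of 20 the lowest. It had the largest change of the 36 genes, 14.96-fold lower (log2 fold change -3.90 ± 0.57, adjusted p = 0.000224), and the call held without each library in turn (log2 fold change -4.57 to -3.83). Dvl2 covers 42.9% of the Acadvl exon bases on the opposite strand and had 4 to 86 reads per library. Acadvl had 1326 to 3725 reads in whole muscle and 18, 32 and 43 in the pools of 20, where Dvl2 had 37, 29 and 58. In the pools of 20 the read density of Acadvl was close to the receptor genes' 99th percentile (34.6 against 29.9 reads per kilobase). Whether the counting used strand is not given, so reads of the shared bases cannot be told apart.

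Acads (short chains; ENSMUSG00000029545, chromosome 5, 115110299 to 115119346, minus strand) was at 45.0, 50.9 and 48.7 CPM in whole muscle. In fibers it was at 6.14, 7.94 and 3.99 CPM (single), 12.9, 12.1 and 9.30 CPM (pools of 5), and 11.6, 2.49 and 5.17 CPM (pools of 20). The highest fiber library was far below the lowest whole muscle library, and single fiber 2 and 5-fiber pool 3 did not stand out. Acads was 6.34-fold lower (log2 fold change -2.67 ± 0.38, adjusted p = 0.000188), and its call held without each library in turn. Acadl and Acadm, for long and medium chains, did not pass the test over all isolated fibers (log2 fold changes -1.29 ± 0.54 and -1.43 ± 0.62, adjusted p = 0.1005 and 0.110). Both were above whole muscle in single fiber 2, where Acadm reached 336 CPM against 196 to 225 in whole muscle and Acadl 299.7 CPM against 216 to 237. Both were called lower without single fiber 2 (adjusted p = 0.0368 for Acadl and 0.016 for Acadm), without 5-fiber pool 3 (0.0377 and 0.00934) and without both (0.00598 and 0.000119), where the log2 fold changes were -1.77 and -2.36. Acadl was also called lower with DESeq2 (adjusted p = 0.0381).

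Trifunctional protein carries out the last 3 steps for long chains and is built from an alpha subunit, Hadha, and a beta subunit, Hadhb, in equal numbers. The window between their genes is shown because the subunits' reads went apart. In GENCODE the starts of Hadha (minus strand, 30155162) and Hadhb (plus strand, 30155248) lie head to head on chromosome 5, 86 bases apart. The capitals mark the 85 bases between these GENCODE starts in the RefSeq window of Hadhb, chr5:30155003-30155302, plus strand, GRCm38.p6. RefSeq places the Hadha start elsewhere (its window is chr5:30154931-30155230, minus strand), so the capitals do not mark the interval between RefSeq starts.
Hadhb: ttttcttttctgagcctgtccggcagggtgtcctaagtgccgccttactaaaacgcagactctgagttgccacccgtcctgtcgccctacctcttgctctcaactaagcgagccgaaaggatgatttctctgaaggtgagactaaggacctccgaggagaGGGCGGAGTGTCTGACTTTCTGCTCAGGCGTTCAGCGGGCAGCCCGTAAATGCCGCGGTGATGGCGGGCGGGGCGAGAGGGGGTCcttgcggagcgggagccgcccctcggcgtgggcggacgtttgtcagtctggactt
Hadhb was at 229.5, 251 and 203 CPM in whole muscle, 54.9, 233 and 76.6 CPM in single fibers, 63.6, 57.0 and 123 CPM in pools of 5, and 48.7, 10.9 and 41.4 CPM in pools of 20. Single fiber 2 lay within the whole muscle range, and the 8 other fiber libraries were below it. Hadhb was 3.29-fold lower (log2 fold change -1.72 ± 0.50, adjusted p = 0.0284). The adjusted p was 0.0504 and 0.0501 without single fiber 1 or 3, and 0.0939, 0.124 and 0.0885 without whole muscle 1, 2 or 3. With the 5 libraries with many receptor reads left out, single fibers and 5-fiber pool 3 alone were at a log2 fold change of -1.09. Hadha was at 85.9, 124 and 108 CPM in whole muscle and 22.5 to 159 CPM in fibers, with a log2 fold change of -0.13 ± 0.48 (adjusted p = 0.952) that turned positive with upper-quartile factors (0.12).

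Set as a ratio within a library, which no scaling touches, Hadhb had 2.67, 2.03 and 1.88 reads per Hadha read in whole muscle. In single fibers the ratio was 0.573, 2.09 and 1.21, in pools of 5 it was 0.399, 0.488 and 1.25, and in pools of 20 it was 0.395, 0.485 and 0.445. Single fiber 2 alone reached the whole muscle range. In Hadhb, 41.2% of the sampled transcript windows recur in another gene, chiefly Gm13910, which had at most 42 reads per library. These ratios were chosen after their values were seen and carry no test.

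Electron transfer flavoprotein is likewise a pair, Etfa and Etfb, which takes electrons from the dehydrogenases. Etfa was at 204, 228.5 and 216 CPM in whole muscle, 75.0, 460 and 75.6 CPM in single fibers, 54.0, 35.4 and 275 CPM in pools of 5, and 48.7, 6.86 and 33.2 CPM in pools of 20. Single fiber 2 and 5-fiber pool 3 were above whole muscle and the rest below, and the log2 fold change of -1.26 ± 0.65 did not pass the test (adjusted p = 0.184). Etfa was called lower at -1.82 without either library (adjusted p = 0.0312 without single fiber 2 and 0.0149 without 5-fiber pool 3) and at -2.27 without both (0.000245). Etfb was at 47.5, 51.1 and 54.7 CPM in whole muscle, 83.3, 186 and 53.7 CPM in single fibers, 197, 171 and 199.7 CPM in pools of 5, and 130.1, 19.6 and 116 CPM in pools of 20. Of the 9 fiber libraries, 7 were above every whole muscle library, single fiber 3 was within their range and 20-fiber pool 2 was below it. The log2 fold change was 1.25 ± 0.57 (adjusted p = 0.128) over all isolated fibers, and Etfb passed without 20-fiber pool 2 (1.40, adjusted p = 0.0288). Etfb also passed with TMM factors from genes expressed in whole muscle (1.54, adjusted p = 0.0201) and with DESeq2 (1.33, adjusted p = 0.0101).

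Per Etfb read, Etfa had 4.29, 4.47 and 3.95 reads in whole muscle. The same ratio was 0.900, 2.47 and 1.41 in single fibers, 0.274, 0.207 and 1.38 in pools of 5, and 0.374, 0.350 and 0.285 in pools of 20. All fiber libraries lay below whole muscle in this ratio, including 20-fiber pool 2, and the highest among single fibers and pools of 5 were again single fiber 2 and 5-fiber pool 3. Ratios were also taken for Cpt2 to Slc25a20 (0.854 to 0.982 in whole muscle, 0.709 to 1.51 in fibers) and for Acadl to Acadm (1.05 to 1.16 and 0.893 to 2.51). Those overlapped between fibers and whole muscle, and no ratio carries a test. The gene Gm45233 covers 53.0% of the Etfb exon bases on the same strand and had 0 reads in all libraries. Over all genes, 58.25% of the Etfb exon bases are shared on the same strand, and 64.5% of its sampled windows recur in another gene. How reads on shared bases were counted is not given, and their part in the Etfb level and in this ratio was not tested. Etfdh, which hands the electrons to ubiquinone, had a log2 fold change of -1.34 ± 0.48 (adjusted p = 0.0596), and was called lower without single fiber 2 (0.0165), without 5-fiber pool 3 (0.0108) and without both (-1.88, adjusted p = 0.000799). Etfdh was also called lower with relative log expression factors (adjusted p = 0.0416) and with DESeq2 (0.018).

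**Figure D4:**
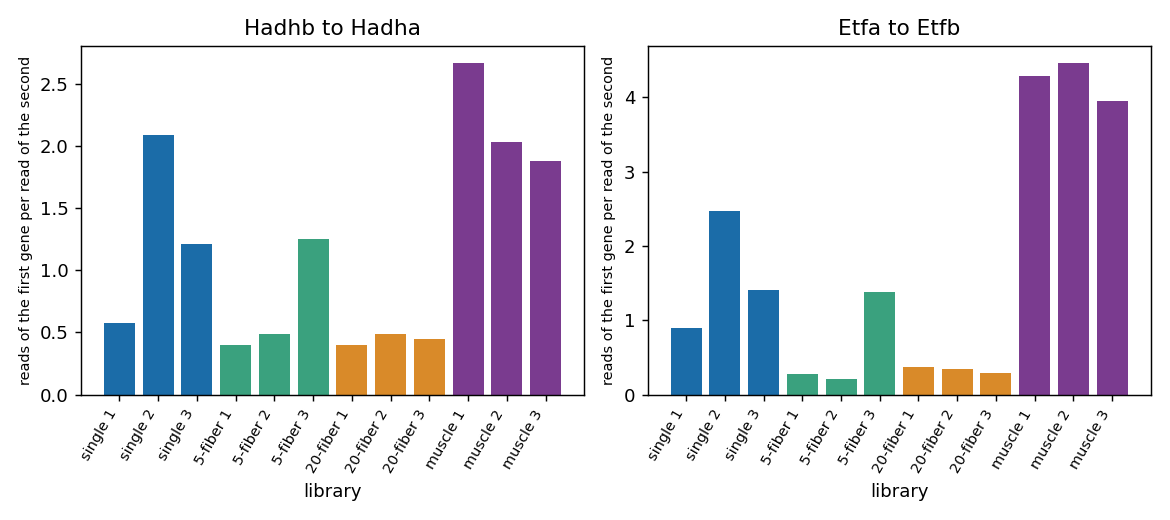
Reads of one subunit per read of its partner in each library, Hadhb to Hadha on the left and Etfa to Etfb on the right, with bars from 0 coloured by group. Whole muscle lies at 1.88 to 2.67 on the left and 3.95 to 4.47 on the right, and the pools of 20 at 0.395 to 0.485 and 0.285 to 0.374.

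The remaining steps of the spiral did not pass the test. Acaa2, the thiolase with the highest level per length among the beta oxidation genes, was at 226, 269 and 237 CPM in whole muscle, 108, 302 and 80.2 CPM in single fibers, 208, 165 and 293 CPM in pools of 5, and 146.5, 17.5 and 134 CPM in pools of 20. Only single fiber 2 and 5-fiber pool 3 were above whole muscle (log2 fold change -0.67 ± 0.56, adjusted p = 0.446). Hadh and Echs1, the dehydrogenase and hydratase for shorter chains, had log2 fold changes of -0.80 ± 0.50 and -0.18 ± 0.49 (adjusted p = 0.284 and 0.912). The auxiliary enzymes Decr1, Eci1 and Eci2, which deal with double bonds of unsaturated chains, had -0.78 ± 0.47, -0.58 ± 0.55 and -0.40 ± 0.51 (adjusted p = 0.268, 0.519 and 0.672). Decr1 passed without single fiber 2 and 5-fiber pool 3 (-1.19, adjusted p = 0.0383). Eci1, the most abundant of these, was at 141, 132 and 131 CPM in whole muscle, 87.5, 205 and 76.3 CPM in single fibers, 83.0, 49.9 and 243 CPM in pools of 5, and 75.7, 11.5 and 55.0 CPM in pools of 20, so that the same 2 libraries lay above and the 7 others below whole muscle.

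Acot13, a thioesterase that frees fatty acid from its CoA ester at the mitochondrion, was at 126, 157 and 162 CPM in whole muscle. It was at 261, 597 and 130.4 CPM in single fibers, 123, 69.7 and 556 CPM in pools of 5, and 78.7, 8.14 and 87.2 CPM in pools of 20. Single fibers 1 and 2 and 5-fiber pool 3 were above every whole-muscle sample, and 5-fiber pools 1 and 2 and all pools of 20 were below every one. The log2 fold change of 0.18 ± 0.69 (adjusted p = 0.960) turned to -0.35 without 5-fiber pool 3, -0.14 without single fiber 2 and -0.57 without both. Acot2, a mitochondrial thioesterase, was at 6.51 to 9.97 CPM in whole muscle and 1.81 to 17.3 CPM in fibers (log2 fold change -0.19 ± 0.48, adjusted p = 0.894), and shares 27.5% of its sampled transcript windows with other genes, chiefly Acot1. Of the malonyl-CoA genes, Mlycd, the decarboxylase that removes malonyl-CoA, was at 54.8, 82.5 and 80.7 CPM in whole muscle, 41.8, 35.95 and 42.3 CPM in single fibers, 59.0, 52.5 and 63.1 CPM in pools of 5, and 55.0, 10.6 and 58.6 CPM in pools of 20. All single fibers, 5-fiber pool 2 and 20-fiber pool 2 were below every whole-muscle sample. Mlycd was 1.85-fold lower in single fibers (log2 fold change -0.89 ± 0.26, adjusted p = 0.0334), a call lost without single fiber 1 (0.0523) or whole muscle 1, 2 or 3 (0.0608, 0.137 and 0.129). Acacb, the carboxylase that makes malonyl-CoA at the mitochondrial surface, had a log2 fold change of 0.09 ± 0.42 (adjusted p = 0.984).

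Both genes of fuel choice and uncoupling were lower. Pdk4 (ENSMUSG00000019577, chromosome 6, 5483351 to 5496309, minus strand) was at 340, 411 and 323 CPM in whole muscle, 47.2, 137 and 75.8 CPM in single fibers, 174, 120 and 116 CPM in pools of 5, and 57.4, 9.50 and 93.1 CPM in pools of 20. No fiber library reached whole muscle, and the log2 fold change was -2.06 ± 0.51 (4.17-fold, adjusted p = 0.0130; 0.0701 without whole muscle 2). Ucp3 (ENSMUSG00000032942, chromosome 7, 100472990 to 100486432, plus strand), a mitochondrial carrier of muscle that rises with fat use, was at 97.9, 114 and 96.4 CPM in whole muscle. Its fiber levels were 6.47, 33.0 and 10.4 CPM (single), 26.7, 21.1 and 31.0 CPM (pools of 5) and 58.9, 11.99 and 53.8 CPM (pools of 20). Ucp3 was 3.91-fold lower (log2 fold change -1.97 ± 0.47, adjusted p = 0.0102) without overlap, and the call held without each library in turn.

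Of the 3 regulators, 1 passed the test. Ppard (ENSMUSG00000002250, chromosome 17, 28232700 to 28301474, plus strand), a PPAR subtype studied for its role in muscle, was at 1.54, 2.17 and 2.75 CPM in whole muscle, 14.1, 1.48 and 10.9 CPM in single fibers, 21.2, 15.8 and 5.04 CPM in pools of 5, and 8.27, 5.65 and 5.59 CPM in pools of 20. Of 9 fiber libraries, 8 were above whole muscle, and single fiber 2 was below it. Ppard was 4.27-fold higher (log2 fold change 2.09 ± 0.61, adjusted p = 0.0304). The adjusted p was 0.0536 without 5-fiber pool 1, 0.0616 without 20-fiber pool 1, 0.140, 0.124 and 0.0893 without whole muscle 1, 2 or 3, and 0.189 without the 5 libraries with many receptor reads (log2 fold change 1.46). Its counts were low, 20 to 82 reads per library in whole muscle and 23 to 232 in fibers.

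Ppargc1a (ENSMUSG00000029167, chromosome 5, 51454250 to 51567726, minus strand) encodes PGC-1alpha, which raises mitochondrial gene transcription. It was at 17.3, 18.7 and 18.1 CPM in whole muscle, 139, 42.8 and 227 CPM in single fibers, 76.3, 39.1 and 61.2 CPM in pools of 5, and 29.2, 8.59 and 23.4 CPM in pools of 20. All fiber libraries but 20-fiber pool 2 were above whole muscle. Single fibers 1 and 3 were the highest of the 12, and single fiber 2 lay below 5-fiber pools 1 and 3. Over all isolated fibers the log2 fold change was 1.60 ± 0.54 with an adjusted p of 0.0513. The adjusted p was 0.0233 without 20-fiber pool 2, 0.0353 without single fiber 2, 0.0409 without 5-fiber pool 3 and 0.0113 without both of the last 2. With the 5 libraries with many receptor reads left out, Ppargc1a in single fibers and 5-fiber pool 3 alone was at a log2 fold change of 2.19. It also passed with relative log expression, upper-quartile and muscle-gene factors (0.0234, 0.0188 and 0.0108) and with DESeq2 (0.00108). Ppara was at 2.35 to 2.69 CPM in whole muscle and 0 to 6.12 CPM in fibers (log2 fold change -0.23 ± 0.65, adjusted p = 0.911), with 0, 17 and 12 reads in the single fibers, and a count of 0 allows up to 3 reads.

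Each fiber group was then compared with whole muscle in a fit of its own 6 libraries; the 3 comparisons share the whole muscle libraries. In single fibers 11 of 35 genes tested were lower and 1, Ppargc1a, was higher, where 19.8% and 13.9% of all genes tested were called. The 11 were Acads, Acadvl, Cd36, Lpl, Mgll, Mlycd, Pdk4, Plin5, Pnpla2, Slc25a20 and Ucp3, and the median log2 fold change was -0.64 against -0.12 for all genes. Ppargc1a was 7.61-fold higher (log2 fold change 2.93 ± 0.60, adjusted p = 0.00966; 0.0562, 0.0583 and 0.0591 without whole muscle 1, 2 and 3). The count of lower genes was 24 without single fiber 2, 8 without single fiber 3, 9 without single fiber 1, and 5 without each whole muscle library. The share of all genes called lower moved too, to 28.3% without single fiber 2, 17.8% without single fiber 3, 22.5% without single fiber 1 and 7.68% to 8.43% without a whole muscle library.

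In pools of 5, 6 of 36 genes were lower (Acads, Acadvl, Hadhb, Pdk4, Plin5 and Ucp3) and 3 higher (Etfb, Ppard and Ppargc1a), against 4.22% and 4.63% of all genes tested. The median log2 fold change was -0.30 for the 36 and -0.03 for all genes. Etfb was 3.53-fold higher there (log2 fold change 1.82 ± 0.30, adjusted p = 0.0171) and Ppargc1a 3.10-fold (1.63 ± 0.32, adjusted p = 0.0259), with all 3 pools above all whole muscle libraries for both. None of the 9 calls remained without whole muscle 1, 2 or 3 or without 5-fiber pool 1, and 3 lower and 2 higher remained in number without 5-fiber pool 2. Without 5-fiber pool 3 the counts were 19 lower and 6 higher. Over all genes the calls fell to 7, 46 and 45 without whole muscle 1, 2 and 3 and to 202 without 5-fiber pool 1, from 1307, and without 5-fiber pool 3 they were 23.1% lower and 25.2% higher. Without 5-fiber pool 2 they were 3.26% lower and 3.65% higher.

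In pools of 20, 15 of 36 genes were lower and Ppard was higher (3.80-fold, log2 fold change 1.92 ± 0.45, adjusted p = 0.00257), against 13.5% and 30.3% of all genes tested. Ppard had 35.5 reads per kilobase in pools of 20, close above the 99th percentile of the receptor genes there (29.9). In whole muscle those values were 21.7 and 2.83. The median log2 fold change of the 36 genes was -1.19, and that of all genes was 0.38. Beyond the 8 genes also lower over all isolated fibers (Acads, Acadvl, Cd36, Hadhb, Pdk4, Plin5, Pnpla2 and Slc25a20), these were Acadl, Acadm, Cpt2, Decr1, Etfa, Etfdh and Fabp3. Acadvl had its largest change here, 40.1-fold lower (log2 fold change -5.33 ± 0.56, adjusted p = 2.05e-05), and Fabp3 was 6.30-fold lower (-2.66 ± 0.77, adjusted p = 0.0110). In pools of 20 Acadvl was close to the receptor genes' 99th percentile (34.6 against 29.9 reads per kilobase), so the size of its fold is uncertain. In whole muscle Acadvl had 3042 reads per kilobase. For 24 of the 36 genes every pool lay below every whole muscle library, where 30.2% of all genes tested did. Without 20-fiber pool 2 the counts were 24 lower and 4 higher; they were 8 and 10 lower without whole muscle 2 and 3, and 21 without 20-fiber pool 1. Of all genes 23% were lower and 34.8% higher without 20-fiber pool 2, 7.46% and 7.75% were lower without whole muscle 2 and 3, and 15.1% without 20-fiber pool 1.

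Differences between fiber groups were tested directly. Between single fibers and pools of 5, 0 of 35 genes passed edgeR's test, where 2 of 12700 genes did (0.0157%, both lower in single fibers). An unadjusted p under 0.05 was found for 5 genes (14.3%, against 8.91% of all genes), which were Acot2, Cd36, Lpl, Mgll and Ppara. DESeq2 called 2 of them, Lpl and Mgll, lower in single fibers, and 1 gene, Mgll, passed edgeR's test without 5-fiber pool 3. Of all genes tested, 3.11% were lower with DESeq2 and 3.99% without 5-fiber pool 3. Between pools of 5 and pools of 20, 0 of 35 genes passed, as did 0.00% of all 17113 genes tested; 4 had an unadjusted p under 0.05 (11.4%, against 8.78%) and DESeq2 called 0. The log2 fold change was above 0 in pools of 5 for 34 of these 35 genes, with a median of 1.11 against -0.09 for all genes. This difference rests in part on the scaling. The median was 0.83 with upper-quartile factors and 0.77 with TMM factors from genes expressed in whole muscle. In CPM set to the library total alone the groups overlapped. The 36 genes there summed to 1725, 2104 and 3318 in pools of 5 and to 2320, 1094 and 2962 in pools of 20.

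Between single fibers and pools of 20, 5 of 35 genes were higher in single fibers (Acadvl, Acot13, Etfa, Fabp3 and Ppargc1a; 8.52% of all genes) and 2 lower (Mgll and Ucp3; 27.5% of all genes). Ppargc1a was 5.47-fold higher (log2 fold change 2.45 ± 0.64, adjusted p = 0.0104), with every single fiber above every pool of 20, and this held without each library in turn. Without 20-fiber pool 2 there remained 1 higher and 1 lower gene, Ppargc1a and Mgll; Mgll in turn was lost without single fiber 2 or 3 or 20-fiber pool 3 (adjusted p = 0.0502, 0.0994 and 0.167). Without single fiber 2, 2 higher and 2 lower genes were called, and without single fiber 3 or 20-fiber pool 3 no lower gene was. Of all genes, 16.8% were lower and 5.12% higher without 20-fiber pool 2, and 33.5% and 6.44% without single fiber 2. Without single fiber 3 or 20-fiber pool 3, 34.3% and 29.1% of all genes were lower.

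How much the genes varied between libraries of a group also differed by group. Over the 32 of the 36 genes that averaged at least 10 CPM, the median SD of log2 CPM was 0.133 in whole muscle, 0.544 in pools of 5, 0.901 in single fibers and 1.35 in pools of 20. Over the 6180 genes of that level in the genome it was 0.164, 0.654, 0.538 and 0.911. The summed level of the 36 genes was 4624, 5186 and 4690 CPM in whole muscle, 2406, 5641 and 2145 CPM in single fibers, 3290, 2832 and 5368 CPM in pools of 5, and 2239, 388 and 2136 CPM in pools of 20. Single fiber 2 and 5-fiber pool 3 exceeded whole muscle in this sum only after scaling by their factors (0.558 and 0.618, against 1.42 to 1.61 in whole muscle). In CPM set to the library total alone, the 36 genes summed to 3146 and 3318 in these libraries and to 6685 to 7425 in whole muscle. Both had few receptor genes with a read (4.85% and 4.59%), as whole muscle had (2.33% to 4.85%), while the other single fibers had 9.91% and 26.7% and the other pools 58.1% to 97.3%. The part of those reads in the levels was not tested.

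Markers of other cell types moved with the comparison with whole muscle. The 11 endothelial markers, led by Fabp4 and Gpihbp1, summed to 963 to 1145 CPM in whole muscle, 87.1 to 638 CPM in pools of 5, 63.0 to 537 CPM in pools of 20 and 1.87 to 6.14 CPM in single fibers, where Gpihbp1 and Esam were at 0 reads in all 3. Lpl, Cd36 and Mgll were highest among pools of 5 in pools 1 and 2 and among pools of 20 in pool 3, the libraries with the most endothelial signal (638, 471 and 537 CPM). This order is not particular to them. Pdk4 (174, 120 and 116 CPM in pools of 5, 57.4, 9.50 and 93.1 in pools of 20) and Acot2 (17.3, 12.9 and 7.07, and 9.51, 1.81 and 10.6) had it too. Nor is it particular to endothelial markers. The same libraries led their groups for fibroblast (348, 467 and 438.5 CPM), pericyte and smooth muscle (363, 233 and 187 CPM) and erythroid markers (384, 452 and 350 CPM). They did so for macrophage markers too (38.35, 31.6 and 46.0 CPM), but not for adipocyte or brown fat markers. In single fiber 2, with 1.87 CPM of the endothelial markers, Lpl was at 128 CPM and Cd36 at 72.5 CPM, each the highest of the single fibers, and Mgll was at 6.26 CPM, the lowest of them. The 8 adipocyte markers, led by Cfd and Scd1, summed to 994 to 1261 CPM in whole muscle and to at most 16.6 CPM in any fiber library, with Lep at 0 in all single fibers. Lipe is both in that list and in the triglyceride list used here, and Fabp4 is expressed by fat cells too. The part of these cells in the results was not tested.

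**Figure D5:**
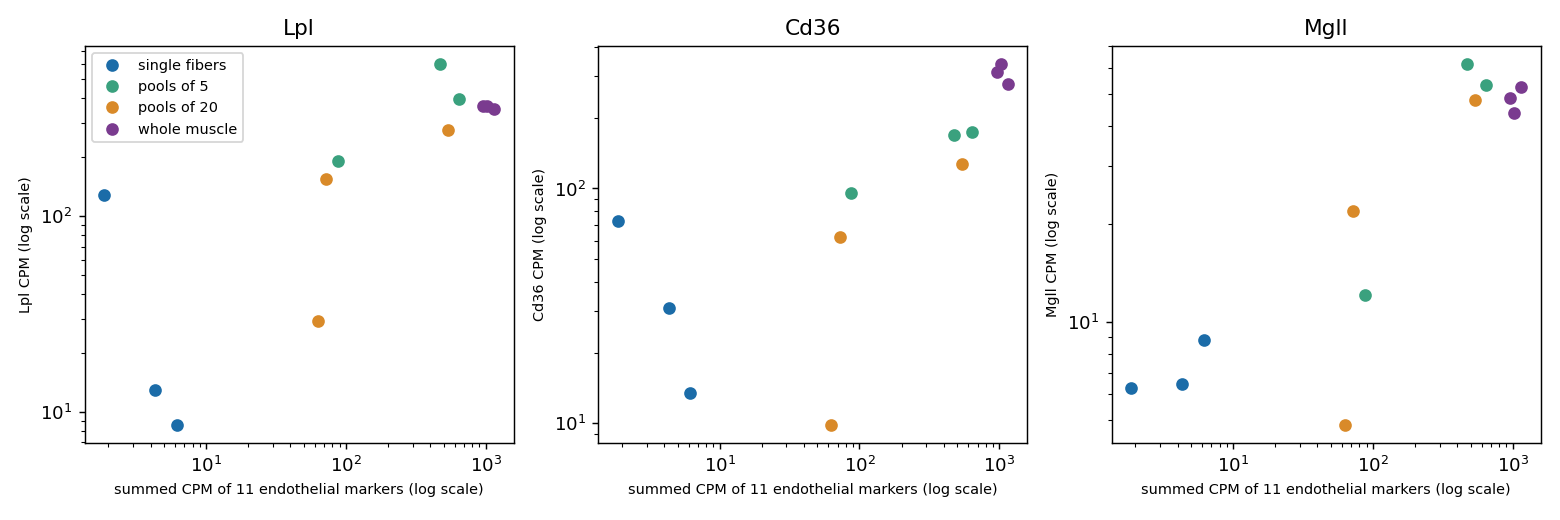
CPM of Lpl, Cd36 and Mgll against the summed CPM of 11 endothelial markers in the 12 libraries, both on log axes, coloured by group. Single fibers lie at the left end (1.87 to 6.14 CPM of markers) and whole muscle at the right (963 to 1145 CPM). Pools with the most endothelial signal also had the most fibroblast, pericyte and erythroid signal.

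Whole muscle also holds slow fibers, which are known for higher fat oxidation. The 8 slow fiber markers, led by Tpm3 and Myl3, summed to 722 to 1380 CPM in whole muscle, 149 to 245 CPM in pools of 5, 31.4 to 95.9 CPM in pools of 20 and 21.2 to 76.2 CPM in single fibers, and 8 of 8 were lower in isolated fibers. The 11 fast fiber markers, led by Acta1 and Mylpf, summed to 80370 to 107700 CPM in whole muscle, 175000 to 308900 CPM in single fibers, 60110 to 336300 CPM in pools of 5 (the highest in pool 3) and 17620 to 112200 CPM in pools of 20 (the lowest in pool 2). Of the 11, 1 was lower and 0 higher in isolated fibers, and 1 was lower and 6 higher in single fibers. Markers of fibroblasts (6 of 6 lower, led by Col3a1 and Dcn), erythroid cells (5 of 5, Hbb-bs and Hbb-bt), macrophages (6 of 7, Lyz2 and Cd74), pericytes and smooth muscle (4 of 5, Rgs5 and Acta2) and brown fat (2 of 3, Ucp1 and Cidea) were lower in isolated fibers. Whether their share, or that of slow fibers, moved the fatty acid genes was not tested.

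The wider pathway was counted over 5 lists of further genes, against the same 7.78% lower and 7.46% higher among all genes. Of 11 further uptake and activation genes 3 were lower and 0 higher in isolated fibers. They included Angptl4, an inhibitor of lipoprotein lipase, at 45.9 to 51.5 CPM in whole muscle and 0 to 16.4 CPM in fibers (log2 fold change -3.27 ± 0.62, adjusted p = 0.00203), and the binding protein Fabp5 (-2.93 ± 0.69, adjusted p = 0.00921). Of 11 triglyceride genes 4 were lower and 0 higher, led by the acyltransferase Agpat2 (-3.86 ± 0.37, adjusted p = 3.95e-06) and hormone-sensitive lipase, Lipe (-2.95 ± 0.38, adjusted p = 7.76e-05). Of 16 further mitochondrial genes 3 were lower and 0 higher, among them Bdh1, a ketone body enzyme (-3.90 ± 0.54, adjusted p = 0.000154), and Ucp2 (-3.87 ± 0.54, adjusted p = 0.000170). Bdh1, Ucp2, Agpat2 and Lipe were lower in all 9 fiber libraries than in any whole muscle library.

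Peroxisomal oxidation genes gave 2 lower and 0 higher of 12: Ehhadh, the bifunctional enzyme (log2 fold change -1.55 ± 0.42, adjusted p = 0.0225), and Scp2, a thiolase and lipid carrier (-1.70 ± 0.53, adjusted p = 0.0391), whose groups overlapped because single fiber 2 stood at 116 CPM against 85.5 to 98.9 in whole muscle. Of 26 further regulators 2 were lower and 1 higher. Pparg, the PPAR subtype of fat cells, was at 4.54 to 7.31 CPM in whole muscle and 0 to 2.19 CPM in fibers (-3.93 ± 0.64, adjusted p = 0.000589), and Klf15, a transcription factor of fasting metabolism, had a log2 fold change of -1.36 ± 0.39 (adjusted p = 0.0265). Sirt1, a deacetylase that acts on PGC-1alpha, was at 1.63 to 3.23 CPM in whole muscle and 6.11 to 38.8 CPM in fibers, with all 9 fiber libraries above whole muscle (3.11 ± 0.51, adjusted p = 0.000624).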

How the data were processed

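RNA sequencing of 12 libraries (4 groups of 3) was summarised by the authors as raw read counts per Ensembl gene, deposited as whole numbers with no normalization. HISAT2, SAMtools and featureCounts on GRCm38 (mm10) are named in the submitters' processing notes; versions, strand and multi-mapping settings and the annotation release are not given in the sources used here. Symbols, positions and exon lengths came from GENCODE vM21, which matched 55480 of 55573 identifiers. Depth was 4702823 to 27787120 reads; a member at 0 reads may have had up to 3, a limit that covers counting error only.

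Counts were tested in R 4.3.3 with edgeR 4.0.16 (filterByExpr, TMM factors, glmQLFit and glmQLFTest, no fold minimum), with Benjamini-Hochberg adjusted p under 0.05 over all genes tested. Isolated fibers against whole muscle used all 12 libraries; each pair of groups used its own 6 libraries and factors, while the printed CPM use factors over the 12. Standard errors are the log2 fold change divided by the root of the F statistic. The fits were tested on simulated data. Libraries of a group were checked for duplicates, and none was a near copy of another. Promoter windows are from RefSeq. Read background was measured on 1504 receptor genes. Shared sequence was searched with 50-base windows, 1 in 8, of each transcript in the transcripts of other genes.

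Alternatives were DESeq2 1.42.0, other scaling factors, no filter on low counts, a replicate block, and leaving out each library. The members, the gene lists and the tests were chosen with earlier results of these data known. By rule, every library's value is given for members called in isolated or in single fibers against whole muscle and for the member of each role with the highest RPKM in whole muscle. Of the other lists the 2 called genes with the largest change in each direction, and of each marker list the 2 with the highest CPM in whole muscle, are named. Values in every library for Etfb, and the named neighbours of members in the annotation, were added after their values were seen.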

Additional observations from a re-analysis of the deposited data

Results flagged for a closer look

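Direct tests between single fibers and pools of 20 fibers, without whole muscle, found 7 of 35 genes whose level differed between these groups (edgeR, adjusted p under 0.05). Of these, 5 were higher and 2 lower in single fibers, where 8.52% and 27.5% of all genes tested were called higher and lower. The log2 fold changes, single fibers minus pools of 20, were 2.65 for Acadvl, 2.21 for Acot13, 2.45 for Etfa, 2.41 for Fabp3, 2.45 for Ppargc1a, -2.08 for Mgll and -1.65 for Ucp3. Both groups hold 1 library that stood apart. Without 20-fiber pool 2, the Acadvl, Acot13, Etfa, Fabp3 and Ucp3 calls were lost (adjusted p = 0.0553, 0.0721, 0.104, 0.121 and 0.0858). Without single fiber 2, those of Acadvl, Acot13, Etfa, Fabp3 and Mgll were lost (0.0586, 0.119, 0.162, 0.247 and 0.0502). Ucp3 was also lost without single fiber 1 or 3 or 20-fiber pool 1 or 3 (0.398, 0.357, 0.0713 and 0.0523), and Mgll without single fiber 3 or 20-fiber pool 3 (0.0994 and 0.167). Of the 7, only Ppargc1a kept its call without each of the 6 libraries in turn.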

How the results depend on the processing

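Under other settings (DESeq2, relative log expression and upper-quartile factors, no low-count filter, a replicate block, each library left out) and 3 more fits chosen after seeing the data (TMM factors from genes expressed in whole muscle, and leaving out 2 or 5 libraries), no member changed direction in a comparison in which it was called. In isolated fibers against whole muscle (9 lower, 1 higher) the counts were 11 and 2 with relative log expression, 8 and 2 with upper-quartile factors, 9 and 3 with muscle-gene factors, 12 and 3 with DESeq2, and 8 and 1 without the filter. The shares of all genes were 5.96% and 6.58%, 5.14% and 9.58%, and 3.62% and 7.72% with those factors in turn. They were 8.2% lower and 20.8% higher with DESeq2, and 3.86% each without the filter. Leaving out 1 library gave 4 to 17 lower and 0 to 3 higher, and leaving out single fiber 2 with 5-fiber pool 3 gave 19 and 2. The fit without the 5 libraries with many receptor reads holds no pool of 20 and only 5-fiber pool 3 of its group, so its counts are not comparable. Its median log2 fold change was -0.54 for the members and -0.25 for all genes. Of all genes, 3.35% to 11.4% were lower and 1.16% to 16.3% higher with 1 library left out. The shares were 14.8% and 19.6% without single fiber 2 and 5-fiber pool 3. In single fibers (11 and 1) the higher count was 2 with DESeq2 and 3 without the filter, and leaving out 1 library gave 5 to 24 lower and 0 to 3 higher. Of all genes, 17.8% were higher with DESeq2 and 6.97% without the filter. With 1 library left out, 7.68% to 28.3% were lower and 2.65% to 21.7% higher. Pools of 5 (6 and 3) gave 0 to 19 lower and 0 to 6 higher with 1 library left out, where 0.0306% to 23.1% and 0.0122% to 25.2% of all genes were called. Pools of 20 (15 and 1) gave 8 to 24 lower and 1 to 4 higher, 4 higher with muscle-gene factors, 0 higher without the filter. Of all genes, 7.46% to 23% were lower and 27.1% to 42.2% higher with 1 library left out. The higher share was 37% with muscle-gene factors and 40% without the filter. Between single fibers and pools of 5 (0 called), DESeq2 gave 2 lower, no filter 3, and leaving out 1 library 0 to 1. Of all genes, 3.11%, 1.66% and 0% to 3.99% were lower in these fits. Between single fibers and pools of 20 (2 lower, 5 higher) the lower count was 1 with relative log expression, 4 with muscle-gene factors and 0 without the filter; the higher count was 9 with DESeq2 and 3 without the filter; leaving out 1 library gave 0 to 2 and 1 to 10. Of all genes, 27.5% were lower there with relative log expression, 31% with muscle-gene factors and 28.4% without the filter. Higher were 11% with DESeq2 and 2.08% without the filter. With 1 library left out, 16.8% to 40% were lower and 5.12% to 6.62% higher. The cause of these shifts in the counts was not tested. Between pools of 5 and 20 none of these alternatives called a member.

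Members that did not pass the test in isolated fibers turned direction as follows. With upper-quartile and with muscle-gene factors Hadha was at 0.12 and 0.18, Echs1 at 0.067 and 0.106, Acot2 at 0.065 and 0.135, Ppara at 0.084 and 0.256, and Crat at 0.11 and 0.15 (log2 fold change). Acacb was at -0.037 without the filter and Acot13 at -0.57 without the 2 libraries apart. Without the 5 libraries Fabp3 was at 0.33, Echs1 at 0.10, Eci1 at 0.16, Eci2 at 0.32, Acacb at -0.24 and Crat at 0.066. With 1 library left out Hadha ranged from -0.39 to 0.005, Acot13 from -0.35 to 0.35, Acacb from -0.18 to 0.22 and Crat from -0.40 to 0.017.

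The replicate numbers did not pair the libraries: same-numbered libraries of different groups had correlated deviations above 0.1 in 3 of 18 pairs (r from -0.402 to 0.455), and 0 of 12 libraries correlated best with their own number. With the replicate block the counts were 8 lower and 1 higher in isolated fibers, 10 and 1 in single fibers, 14 and 1 in pools of 20, 0 and 0 in pools of 5, and 0 and 0 between single fibers and pools of 20. Of all genes, 7.91% and 5.92%, 15% and 7.33%, 13.3% and 28.5%, 0.698% and 0.867%, and 0.0412% and 0% were called, in the same order. The calls that the block ended include Slc25a20 in isolated fibers (adjusted p = 0.06), Mlycd in single fibers (0.108) and Ppargc1a between single fibers and pools of 20 (0.0891). Depth limits the lowest genes: Cpt1b, with at most 22 reads in a library, and Ppara and Ppard.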
